A study of Homo sapiens with 72 samples.

Results

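The 9 genes described here, CDKN1A, MDM2, SESN1, ZMAT3, RRM2B, FDXR, FAS, TNFRSF10B and GADD45A, are textbook transcriptional targets of the tumour suppressor p53. They were taken by symbol from a named list. The count table holds 23170 genes, and all 9 members passed the filter on low counts that left 14259 genes for testing. The cells were normal human dermal fibroblasts, labelled wildtype, which are primary connective tissue cells of skin, and were treated in a 384-well plate for 24 hours. Treated wells received omaveloxolone, a synthetic triterpenoid that frees the transcription factor NRF2 from its inhibitor KEAP1, at 0.0005, 0.002, 0.005, 0.014, 0.04, 0.12, 0.37, 1.11, 3.33 or 10 µM, with 4 wells at each dose. The other 32 wells received the solvent DMSO alone. RNA was measured by DRUG-seq, which barcodes polyadenylated RNA in each well lysate and reads its 3′ end. The labels number the wells as biological replicates but name no separate cultures. Each p-value therefore measures the spread between wells of the same cells, which may be technical.

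p53 is a transcription factor whose protein is normally kept scarce by MDM2, a ubiquitin ligase that is itself a p53 target, so that the pair forms a feedback loop. Stresses such as DNA damage stabilise p53, which then raises genes that halt the cell cycle, repair DNA, limit oxidants or sensitise the cell to death. Several of its targets, among them CDKN1A, GADD45A and TNFRSF10B, are also known to be raised by stress pathways that do not need p53.

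The members did not move together. In wells at 0.37 µM, CDKN1A, MDM2 and GADD45A rose 6.27-fold, 4.14-fold and 7.83-fold relative to DMSO, and ZMAT3 fell 1.62-fold. At 1.11 µM, GADD45A and CDKN1A were still higher than in DMSO wells, by 3.10-fold and 1.97-fold, and FAS had risen 2.79-fold, while MDM2 did not pass the test and ZMAT3 and FDXR were lower. SESN1, RRM2B and TNFRSF10B passed the test against DMSO at no dose. All fold and log2 changes come from a quasi-likelihood fit in edgeR of all 72 wells, with p-values adjusted by the Benjamini-Hochberg method over all genes tested, and a gene is said to have risen or fallen where the adjusted p was under 0.05. At 0.37 µM, 3 of the 9 members rose, against 11.2% of all genes tested, and 1 of 9 fell, against 13.6%. At 1.11 µM, 3 of 9 rose, against 9.77%, and 2 of 9 fell, against 13.2%. The median log2 change of the 9 members was 0.80 at 0.37 µM and 0.11 at 1.11 µM, beside medians of -0.14 and -0.20 over all genes tested.

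**Figure D1:**
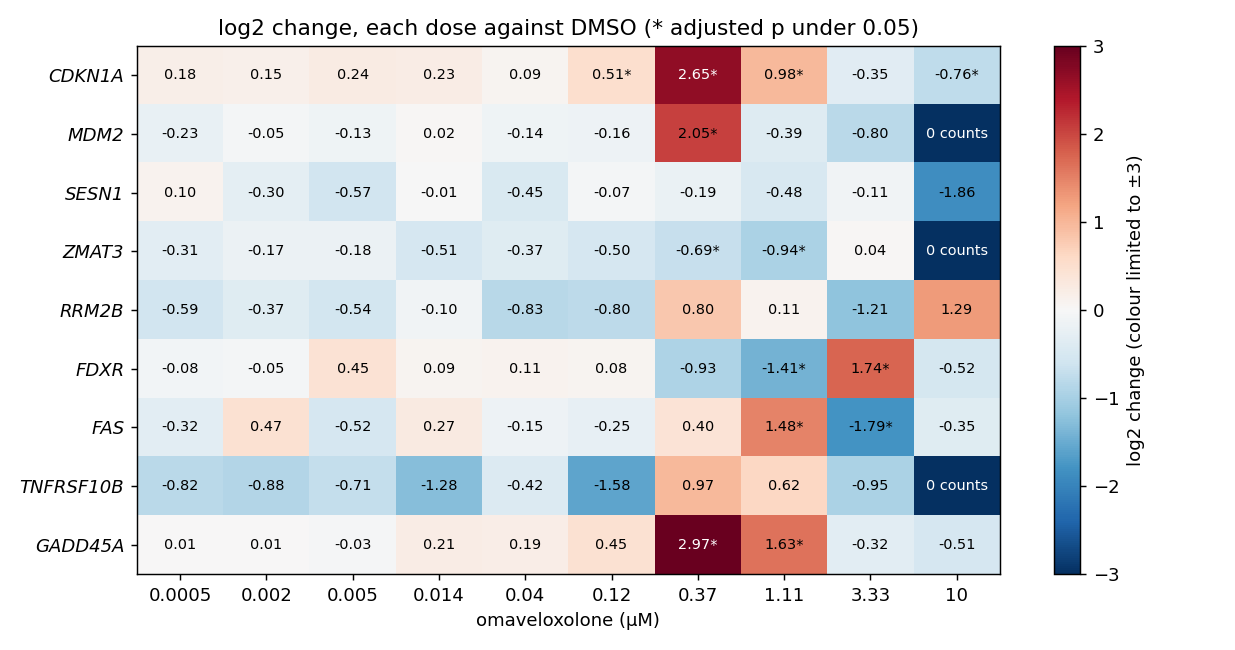
Fitted log2 change of each of the 9 genes (down the page) at each omaveloxolone dose against the 32 DMSO wells (across), coloured from blue, lower, to red, higher, with the colour limited to ±3 and an asterisk where the adjusted p was under 0.05. The strongest red cells lie at 0.37 µM, at 2.65 for CDKN1A, 2.05 for MDM2 and 2.97 for GADD45A, and cells marked 0 counts had no count in any of the 4 wells at 10 µM.

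Wells differed in how much RNA was read from them, and this moved with dose. Total counts ranged from 9310743 to 10386621 in the 4 wells at 0.37 µM, from 1432727 to 1709977 at 1.11 µM, from 132317 to 208739 at 3.33 µM and from 25635 to 39396 at 10 µM, against 4910790 to 8685413 in DMSO wells. The share of counts on mitochondrially encoded mRNAs was 0.0317% to 0.0513% at 0.37 µM and 0.0143% to 0.0265% at 1.11 µM, against 0.6002% to 1.25% in DMSO wells. Fewer cells in a well and less RNA per cell cannot be told apart in these totals. Levels below are counts per 1000000 counts on library sizes scaled by the TMM method (CPM), so they are shares of the RNA read from a well and not amounts per cell. All 10 fibroblast markers were counted. Their summed level in CPM was 33773 to 37939 in wells at 0.37 µM and 66769 to 79409 at 1.11 µM. The DMSO range was 67503 to 81730. VIM alone averaged 60343 CPM in DMSO wells, so the sum rests mostly on that gene. At 0.37 µM every marker averaged below its DMSO mean. At 1.11 µM COL3A1, LUM and VIM averaged lower and the other markers higher. COL3A1 averaged 420 CPM there, against 1215 CPM in DMSO wells, and DCN 8150 CPM, against 4691 CPM. Of the 16 counted markers of keratinocytes, melanocytes, endothelial and immune cells, 13 averaged under 2 CPM in DMSO wells, KDR being at 0. KRT10 averaged 479 CPM at 0.37 µM and 327 CPM at 1.11 µM, against 447 CPM in DMSO wells. CD68 averaged 92.1 CPM at 0.37 µM and 269.5 CPM at 1.11 µM, against 135 CPM in DMSO wells, and the summed immune markers lay at 204.9 to 410.5 CPM at 1.11 µM, above the DMSO range of 93.2 to 184. MITF averaged 5.61 CPM at 0.37 µM and 8.22 CPM at 1.11 µM, against 36.1 CPM in DMSO wells, and the summed melanocyte markers at 0.37 µM, at 5.10 to 9.01 CPM, lay below the DMSO range of 12.6 to 66.2. In the wells at 1.11 µM, CDH1, TP63, MLANA, PMEL, DCT, PECAM1, VWF, PTPRC and LYZ were at 0. KRT5, KRT14, KRT1, TYR, SOX10, CLDN5 and CD3E were not analysed here. The part of depth, mitochondrial share and the marker levels in the changes of the 9 genes was not tested.

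Scaling to genes counted in every well, an alternative chosen after seeing the data, moved the median of all genes at 0.37 µM by 0.25 on the log2 scale. Under it 63.3% of the called genes at 0.37 µM were higher, against 45.1% under TMM. The 3 members that rose at 0.37 µM also rose under that scaling, with log2 changes of 2.90 for CDKN1A, 2.31 for MDM2 and 3.24 for GADD45A, while ZMAT3 lost its call, at -0.45 (adjusted p = 0.203, edgeR).

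CDKN1A encodes p21, the inhibitor of cyclin-dependent kinases through which p53 stops the cell cycle in G1. The gene (ENSG00000124762) lies on the plus strand of chromosome 6 at 36676460 to 36687339 of GRCh38 in GENCODE release 29, the annotation used for all positions of genes below. At 0.37 µM its level was 1047, 980.5, 1074 and 1062 CPM in the 4 wells, against a lowest, median and highest of 107, 165 and 206 CPM in the 32 DMSO wells. The 0.37 µM wells lay close together and far above every DMSO well. The log2 change was 2.65 ± 0.10 (SE; adjusted p = 2.91e-37, edgeR). In the 4 wells at 1.11 µM it had 335, 337, 333 and 302 CPM, again all above the highest DMSO well, and the log2 change was 0.98 ± 0.11 (adjusted p = 8.89e-11, edgeR).

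A smaller rise was seen at 0.12 µM, where CDKN1A had 257, 239, 236 and 210.5 CPM. All 4 of these wells lay above the highest DMSO well, and the log2 change was 0.51 ± 0.12 (adjusted p = 0.00353, edgeR). CDKN1A was the only member called at this dose, 1 of 9 against 1.31% of all genes tested being higher and 0 of 9 against 1.02% lower. The call was lost without replicate 1 (log2 change 0.46, adjusted p = 0.0543, edgeR) and against the 0.0005 µM wells (0.33, adjusted p = 0.509, edgeR). It was also lost when DMSO was taken from the plate rows of the treated wells only (0.53, adjusted p = 0.671, edgeR). Those rows, K and L, hold only the DMSO wells K2, K23, L2 and L23, so fewer control wells enter each such comparison. At the 5 doses from 0.0005 to 0.04 µM, CDKN1A averaged 187, 184, 197, 194 and 177 CPM, against 166 ± 19.5 CPM in DMSO wells (SD, n = 32), and passed the test at none.

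No member was called at any of those 5 doses by edgeR, where 0.00701%, 0.0561%, 0.0771%, 0.217% and 0.792% of all genes were called in either direction from the lowest dose to 0.04 µM. At an unadjusted p under 0.05 the member counts at these doses were 0, 0, 1, 0 and 0, and the Wald test of DESeq2 called 0 members at each.

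Without scaling, CDKN1A had 8873 to 10533 counts per well at 0.37 µM, against 565 to 1575 in DMSO wells. Its 1.11 µM wells had 396 to 452 counts, below every DMSO well, although their CPM lay above every DMSO well. The direction at 1.11 µM thus holds for the share of the RNA read from a well and is turned round for the amount read. CDKN1A varied less between DMSO wells than the other members, with a coefficient of variation of 11.8% where counting alone would give 3.04%.

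**Figure D2:**
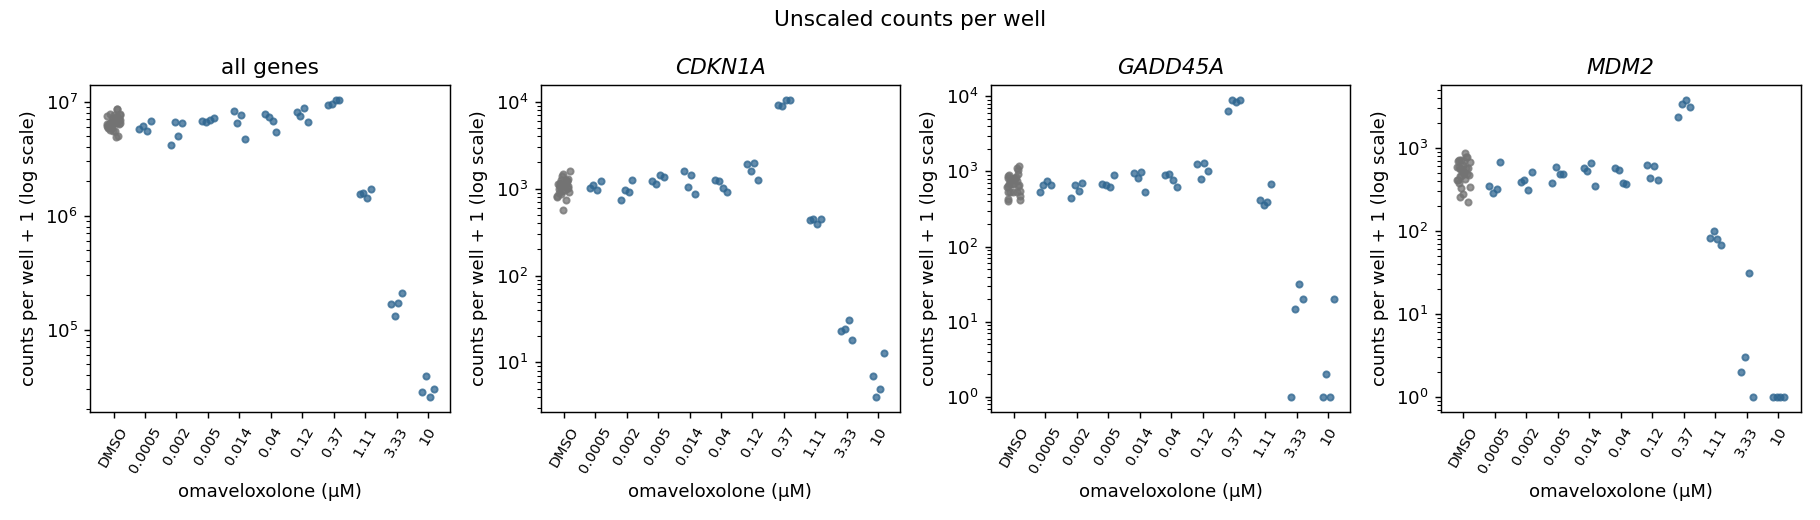
Unscaled counts plus 1 per well on a log scale for all genes together and for CDKN1A, GADD45A and MDM2, with DMSO and the 10 doses along the axis in µM and a point for each well. At 0.37 µM the 3 genes lie above all DMSO wells while the well totals are at most 10386621, and from 1.11 µM upward both the totals and the 3 genes fall.

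The step from 0.12 to 0.37 µM held most of the rise of CDKN1A. Compared with the 0.12 µM wells, the 0.37 µM wells were higher by 2.14 ± 0.17 on the log2 scale (adjusted p = 2.62e-17, edgeR), and the 1.11 µM wells fell by 1.67 on the log2 scale relative to the 0.37 µM wells (SE 0.17, adjusted p = 3.11e-13, edgeR). At 3.33 µM CDKN1A had 126, 150.2, 169 and 81.4 CPM, from 17 to 30 counts a well, and did not pass the test against DMSO (log2 change -0.35, adjusted p = 0.0687, edgeR). At 10 µM it had 97.9, 40.4, 70.2 and 189 CPM from only 3 to 12 counts, and the log2 change of -0.76 (adjusted p = 0.014, edgeR) was lost or turned to 0.14 under other scalings, so no direction is given for that dose.

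MDM2, the ubiquitin ligase that restrains p53, was higher than in DMSO wells at 0.37 µM and passed as higher at no other dose. The gene (ENSG00000135679) lies on the plus strand of chromosome 12 at 68808176 to 68850686. At 0.37 µM it had 268, 371, 389 and 320.1 CPM, against 38.6, 81.3 and 126 CPM (lowest, median and highest) in DMSO wells. The lowest 0.37 µM well lay above the highest DMSO well by more than the whole DMSO range. The log2 change was 2.05 ± 0.21 (adjusted p = 2.77e-13, edgeR). At 1.11 µM the level was 62.6, 73.1, 66.5 and 45.5 CPM, inside the DMSO range, with a log2 change of -0.39 ± 0.27 (adjusted p = 0.282, edgeR).

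The test of the difference between neighbouring doses placed both the rise and the fall of MDM2. It was higher by 2.21 ± 0.34 on the log2 scale at 0.37 µM than at 0.12 µM (adjusted p = 1.25e-06, edgeR), and at 1.11 µM it fell by 2.45 on the log2 scale relative to 0.37 µM (SE 0.35, adjusted p = 6.22e-08, edgeR). At the 6 doses up to 0.12 µM its mean level was 69.2, 78.5, 74.1, 82.7, 73.8 and 72.95 CPM, against 81.3 ± 19.4 CPM in DMSO wells (SD, n = 32). All 6 means lay within 1 SD of the DMSO mean. At 3.33 µM the 4 wells held 1, 2, 30 and 0 counts of MDM2, and at 10 µM all 4 held 0. With a floor of 3 counts over the group, MDM2 was at least 6.99-fold lower at 10 µM than in DMSO wells.

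The start of the MDM2 gene from which p53 is known to drive its transcription is a promoter inside the gene, and its sequence is shown with those of FAS and CDKN1A because these are the members that rose and have a window in the table used. Windows of 300 bases, from 250 before to 50 after an annotated start, were taken from RefSeq on GRCh38.p14 and matched 6 of the 9 members. They were searched on both strands for the p53 consensus of 20 bases without a spacer, allowing 2 mismatches, a limit chosen with the MDM2 sequence already seen. Capitals mark the match.
MDM2, chr12:68808767-68809066, plus strand: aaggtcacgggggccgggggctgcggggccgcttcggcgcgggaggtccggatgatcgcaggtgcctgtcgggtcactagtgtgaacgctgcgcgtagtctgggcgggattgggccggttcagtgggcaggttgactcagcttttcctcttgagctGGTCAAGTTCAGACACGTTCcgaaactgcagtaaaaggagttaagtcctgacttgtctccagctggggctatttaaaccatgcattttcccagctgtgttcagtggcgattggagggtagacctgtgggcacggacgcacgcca
FAS, chr10:88991181-88991480, plus strand: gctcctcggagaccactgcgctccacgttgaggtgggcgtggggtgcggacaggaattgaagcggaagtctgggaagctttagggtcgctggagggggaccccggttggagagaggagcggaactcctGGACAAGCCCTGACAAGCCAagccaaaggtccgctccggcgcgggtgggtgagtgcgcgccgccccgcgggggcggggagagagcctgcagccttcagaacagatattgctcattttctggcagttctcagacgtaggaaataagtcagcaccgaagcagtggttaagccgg
CDKN1A, chr6:36678464-36678763, plus strand: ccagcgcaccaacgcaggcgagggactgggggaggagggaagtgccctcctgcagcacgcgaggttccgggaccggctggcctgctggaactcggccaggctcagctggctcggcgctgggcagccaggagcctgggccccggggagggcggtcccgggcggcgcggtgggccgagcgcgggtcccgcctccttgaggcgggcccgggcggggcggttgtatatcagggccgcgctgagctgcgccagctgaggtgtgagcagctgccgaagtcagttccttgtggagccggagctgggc
Of 35116 such windows in the genome, 0.649% hold a match. For the 6 members 15 windows were searched, and the MDM2 and FAS windows shown were picked because they hold a match. The MDM2 and FAS windows nearer the gene start came no closer than 5 mismatches. No window of SESN1, ZMAT3 or FDXR held a match within 2 mismatches, but a SESN1 and an FDXR window came to 3. Both of these, like the FAS window shown, hold an exact half-site of 10 bases, as do 6.63% of all windows. The MDM2 window shown holds 0 exact half-sites. The share of 0.649% is per window and does not allow for the choice of the MDM2 and FAS windows. The MDM2 match, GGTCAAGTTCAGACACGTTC, lies at 68808923 to 68808942 on chromosome 12, 94 bases before the start of this window's transcript and 747 bases after the start of the gene. It overlaps no exon of the gene's 34 transcripts and lies in an intron of 7 of them. The FAS match, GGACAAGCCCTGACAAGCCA, lies at 88991309 to 88991328 on chromosome 10, 727 bases after the start of the gene, inside 13 of its 20 transcripts and within an exon of 2. The CDKN1A window came no closer than 5 mismatches, which says only that these letters are not in this window. The antioxidant response element core to which NRF2 binds, TGACNNNGC, is present at 1 place in the MDM2 window, ahead of the p53 match and overlapping the AP-1 core TGANTCA. It is present in 13.3% of all windows. Neither the FAS nor the CDKN1A window shown has it, but both FAS windows nearer the gene start and a SESN1 window do. A match is a description of the letters, and binding was not measured.

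GADD45A encodes a small stress protein that slows the cell cycle at G2 and takes part in DNA repair and stress kinase signalling. It (ENSG00000116717) lies on the plus strand of chromosome 1 at 67685061 to 67688338. At 0.37 µM it had 723, 985, 867 and 917 CPM, against 53.02, 110.2 and 190.5 CPM (lowest, median and highest) in DMSO wells. Every 0.37 µM well lay above every DMSO well. Its log2 change of 2.97 ± 0.19 (adjusted p = 2.81e-22, edgeR) was the largest called rise of a member against DMSO. Wells at 1.11 µM had 323, 267, 325 and 467 CPM, still all above the DMSO range, with a log2 change of 1.63 ± 0.22 (adjusted p = 8.48e-09, edgeR). Without scaling they averaged 462 counts, against 716 in DMSO wells, so the direction is turned round for the amount read.

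The same step held the rise of GADD45A, which was 2.52 ± 0.34 higher on the log2 scale at 0.37 µM than at 0.12 µM (adjusted p = 4.58e-08, edgeR). It then fell by 1.34 on the log2 scale at 1.11 µM relative to 0.37 µM (SE 0.33, adjusted p = 0.00138, edgeR). At 0.12 µM its 165, 119, 156 and 169 CPM lay inside the DMSO range, and the log2 change of 0.45 did not pass (adjusted p = 0.431, edgeR). At 3.33 µM GADD45A had 0, 14, 31 and 19 counts, and 3.33 µM wells fell by 1.95 on the log2 scale relative to 1.11 µM wells (SE 0.40, adjusted p = 6.13e-05, edgeR).

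Its relatives also rose. GADD45B and GADD45G, stress proteins of the same family, both passed at 0.37 and 1.11 µM. GADD45B had 58.3, 157, 98.2 and 77.9 CPM at 0.37 µM and 482, 438, 570 and 657 CPM at 1.11 µM, against 28.9 ± 9.26 CPM in DMSO wells (SD, n = 32). Its log2 change was 1.76 ± 0.23 at 0.37 µM and 4.21 ± 0.20 at 1.11 µM, where those of GADD45A were 2.97 and 1.63. The difference between the genes was not tested. GADD45G was nearly absent in DMSO wells, at 0.65 CPM, and averaged 20.5 CPM at 0.37 µM and 15.3 CPM at 1.11 µM, with wells from 0.75 to 53.04 CPM. At 1.11 µM GADD45G did not pass with DMSO from plate rows K and L only.

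**Figure D3:**
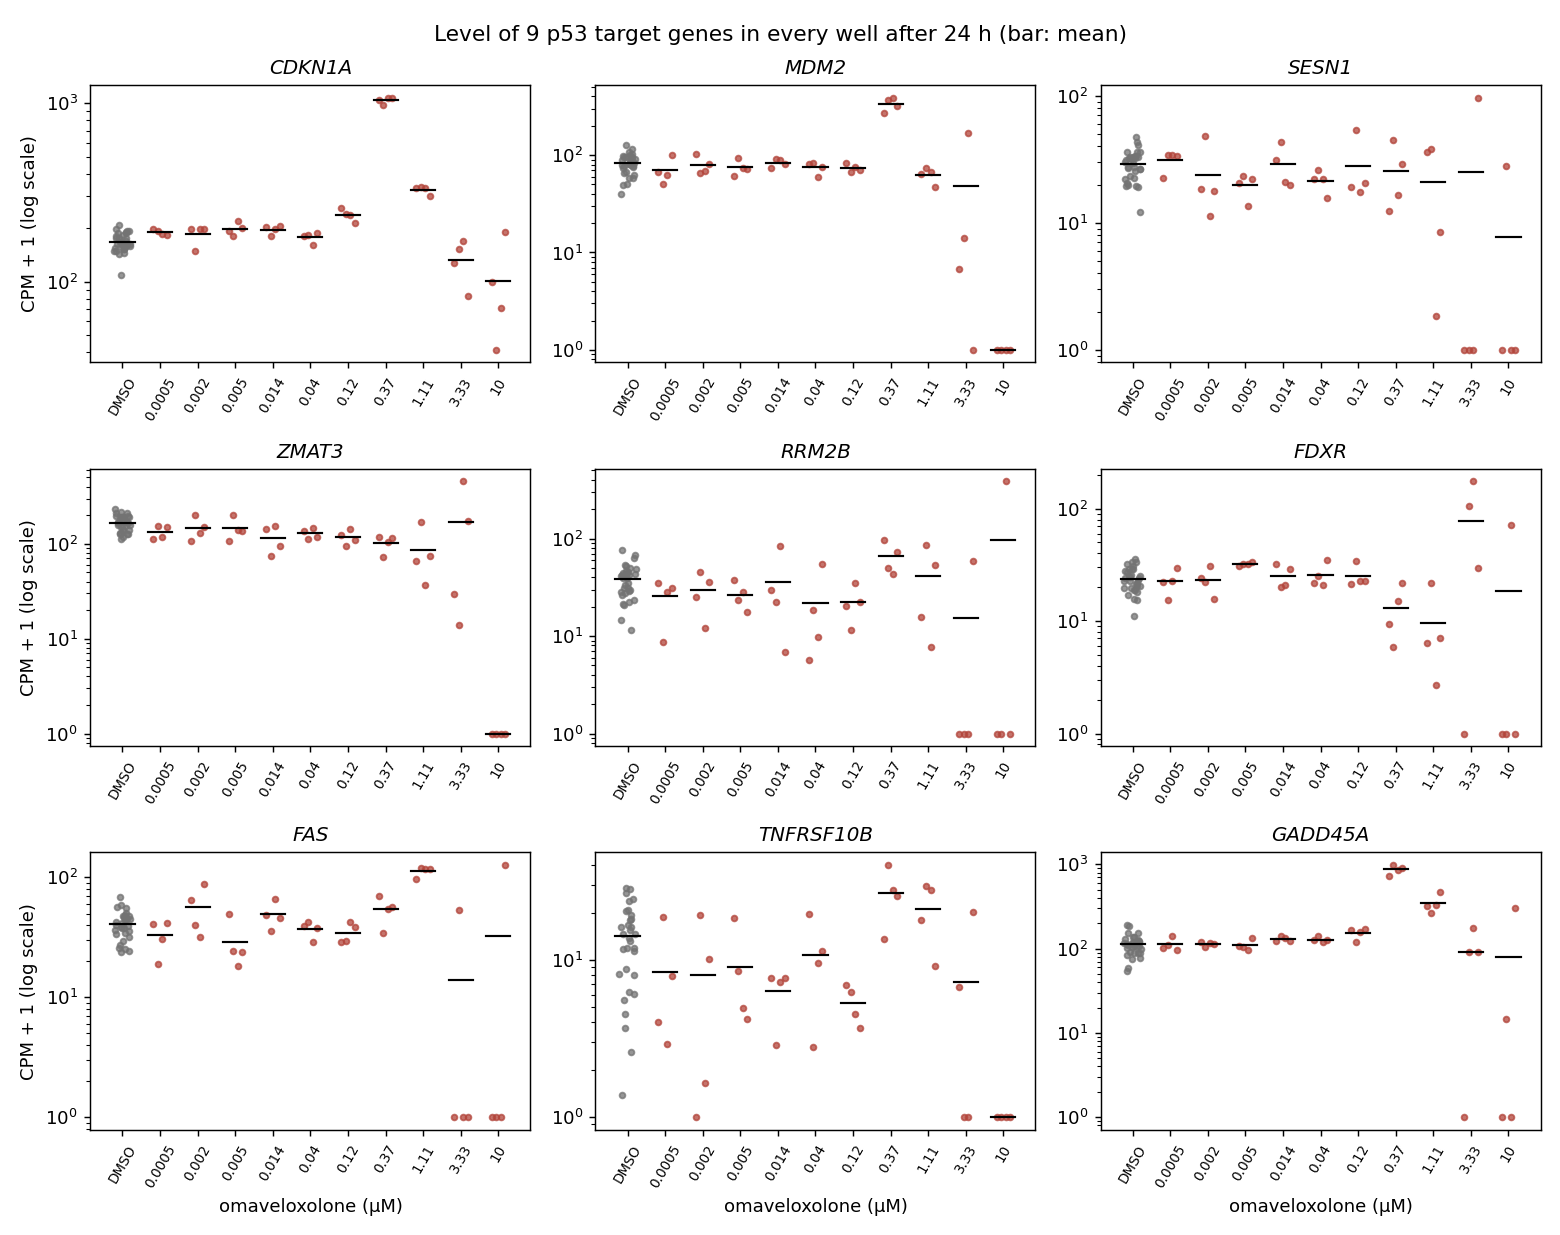
Level of each of the 9 genes in every well, as CPM plus 1 on a log scale, for the 32 DMSO wells (grey) and the 4 wells at each dose in µM (red), with a bar at the mean. CDKN1A, MDM2 and GADD45A stand clear of the DMSO wells at 0.37 µM and FAS at 1.11 µM, while wells of SESN1, RRM2B and TNFRSF10B scatter widely at most doses.

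Among the death receptors, FAS and TNFRSF10B carry the signal of their ligands to caspases from the cell surface. FAS (ENSG00000026103) lies on the plus strand of chromosome 10 at 88990582 to 89015785. At 1.11 µM it had 96.6, 118, 116 and 116 CPM, against 23.0, 40.0 and 67.4 CPM (lowest, median and highest) in DMSO wells. All 4 wells lay above the DMSO range, and the log2 change was 1.48 ± 0.27 (adjusted p = 1.69e-05, edgeR). Without scaling they averaged 148 counts, against 263 in DMSO wells, so here too the direction is turned round for the amount read. With only the DMSO wells of the same plate rows (K2, K23, L2 and L23) the log2 change was 1.49 but did not pass (adjusted p = 0.0651, edgeR). At 0.37 µM the wells had 68.6, 33.6, 53.9 and 55.9 CPM, overlapping DMSO, and FAS did not pass (log2 change 0.40 ± 0.29, adjusted p = 0.329, edgeR).

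The 1.11 µM wells were higher in FAS than the 0.37 µM wells by 1.08 ± 0.41 on the log2 scale (adjusted p = 0.0409, edgeR), in the opposite direction to CDKN1A, MDM2 and GADD45A over the same step. This call was lost without replicate 2, 3 or 4 (adjusted p from 0.0611 to 0.108) and under the scaling to genes counted in every well (0.89, adjusted p = 0.0999), all in edgeR. ACTA2, which encodes smooth muscle actin, overlaps FAS on the opposite strand, and the counting is not stated to use strand. Reads from the stretch that both genes cover therefore cannot be told apart with certainty. Where that stretch lies relative to the 3′ ends that are read was not examined. ACTA2 averaged 152 CPM at 1.11 µM and 106 CPM at 0.37 µM, against 202 CPM in DMSO wells, so that over the step to 1.11 µM both genes had higher means at 1.11 µM. The part of ACTA2 reads in the FAS values was not tested. At 3.33 and 10 µM FAS was counted in 1 well of 4 each time, at 8 counts.

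TNFRSF10B, the TRAIL receptor DR5, lies on the minus strand of chromosome 8 at 23020133 to 23069179 (ENSG00000120889). Its wells scattered widely, with 0.38, 13.2 and 27.7 CPM as the lowest, median and highest DMSO well. At 0.37 µM it had 12.6, 39.1, 26.6 and 24.5 CPM, which overlaps the DMSO range, and its log2 change of 0.97 ± 0.53 did not pass (adjusted p = 0.179, edgeR). Against the 0.12 µM wells, at 5.96, 5.26, 3.52 and 2.69 CPM, the 0.37 µM wells did not overlap and were 2.55 ± 0.82 higher on the log2 scale (adjusted p = 0.0377, edgeR). That call was lost without replicate 2, 3 or 4 (adjusted p from 0.113 to 0.134). RHOBTB2 overlaps TNFRSF10B on the opposite strand. RHOBTB2 averaged 3.97 CPM at 0.37 µM and 25.0 CPM at 1.11 µM, against 20.7 CPM in DMSO wells. Reads from the stretch that this pair shares cannot be told apart with certainty either. Its place relative to the 3′ ends was not examined.

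Of 9 tested genes that act beside these receptors, 1 rose and 2 fell at 0.37 µM, against 11.2% and 13.6% of all genes. At 1.11 µM 0 rose and 2 fell, against 9.77% and 13.2%. CFLAR, which encodes the caspase-8 inhibitor FLIP, averaged 88.7 ± 3.86 CPM at 0.37 µM (SD, n = 4), against 39.9 ± 12.6 CPM in DMSO wells (SD, n = 32; log2 change 1.15, adjusted p = 0.00024, edgeR). At 1.11 µM it averaged 12.1 ± 6.56 CPM and had fallen by 1.73 on the log2 scale (adjusted p = 0.000149, edgeR). TNFSF10, the ligand TRAIL, averaged 0.32 CPM at 0.37 µM, against 8.82 CPM in DMSO wells, and FADD, the adaptor of both receptors, fell at 1.11 µM to 8.24 CPM, against 20.0 CPM in DMSO wells. FADD did not pass without replicate 2 or 3, and with DMSO from rows K and L only neither FADD nor, at 0.37 µM, CFLAR and TNFSF10 did.

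ZMAT3, FDXR, RRM2B and SESN1 act in RNA binding and metabolism. ZMAT3, an RNA-binding protein that changes splicing and mRNA stability downstream of p53, lies on the minus strand of chromosome 3 at 179017223 to 179072279 (ENSG00000172667). At 0.37 µM it had 118, 71.6, 103 and 115 CPM, against 112, 165 and 233 CPM (lowest, median and highest) in DMSO wells. Of these wells, 2 lay below the DMSO range and 2 inside it, and the log2 change of -0.69 ± 0.27 passed narrowly (adjusted p = 0.0476, edgeR), a call lost without replicate 2 or 4 (adjusted p = 0.1004 and 0.0921). At 1.11 µM the wells had 64.2, 169, 36.2 and 73.4 CPM, with a log2 change of -0.94 ± 0.28 (adjusted p = 0.00977, edgeR), and 3 of the 4 lay below every DMSO well.

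ZMAT3 was below its DMSO mean at every dose up to 1.11 µM, at 133, 146, 146, 115, 128, 117, 102 and 85.8 CPM in order of dose, against 165 ± 32.2 CPM in DMSO wells (SD, n = 32). The DMSO wells lay in the outer plate columns and across all rows, and the treated wells between them in rows K and L. Against the 0.0005 µM wells in place of DMSO, the log2 change of ZMAT3 was -0.38 at 0.37 µM (adjusted p = 0.504) and -0.63 at 1.11 µM (adjusted p = 0.234), neither of which passed in edgeR. With DMSO from rows K and L only it was -0.65 at 0.37 µM (adjusted p = 0.422) and -0.91 at 1.11 µM (adjusted p = 0.232). At 10 µM all 4 wells held 0 counts, at least 14.1-fold below DMSO at a floor of 3 counts over the group.

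FDXR encodes ferredoxin reductase, the mitochondrial enzyme that passes electrons to ferredoxins for iron-sulfur cluster and steroid synthesis. It lies on the minus strand of chromosome 17 at 74862497 to 74873031 (ENSG00000161513). At 1.11 µM it had 5.41, 20.9, 1.68 and 6.12 CPM, from 7, 28, 2 and 9 counts, against 10.2, 22.5 and 34.5 CPM (lowest, median and highest) in DMSO wells. In 3 of the 4 wells it lay below every DMSO well, and the log2 change was -1.41 ± 0.43 (adjusted p = 0.0103, edgeR). The call was lost without replicate 3 (-1.09, adjusted p = 0.0559, edgeR), against the 0.0005 µM wells (-1.33, adjusted p = 0.0716) and with DMSO from rows K and L only (-1.68, adjusted p = 0.0937). At 0.37 µM the wells had 8.35, 4.86, 14.0 and 20.8 CPM, and the log2 change of -0.93 ± 0.37 did not pass (adjusted p = 0.0595, edgeR). It passed without replicate 4 (-1.31, adjusted p = 0.0206, edgeR) and in the Wald test of DESeq2 (-0.92, adjusted p = 0.00456).

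Within each side of the plate FDXR was lower at 1.11 µM, by log2 ratios of -0.80 on the left and -2.65 on the right, each from 2 treated and 16 DMSO wells. At 3.33 µM its wells held 0, 16, 31 and 6 counts, so that the CPM lay between 0 and 174, and the log2 change of 1.74 (adjusted p = 0.00011, edgeR) was lost without replicate 3 (0.95, adjusted p = 0.0825). Its partners FDX1 and FDX2, the ferredoxins, passed at neither 0.37 nor 1.11 µM.

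RRM2B encodes the p53-inducible small subunit of ribonucleotide reductase, which supplies deoxynucleotides for DNA repair. It lies on the minus strand of chromosome 8 at 102204502 to 102239118 (ENSG00000048392). At 0.37 µM it had 95.3, 49.4, 42.3 and 71.96 CPM, against 10.5, 38.3 and 75.04 CPM (lowest, median and highest) in DMSO wells. The groups overlapped, and the log2 change of 0.80 ± 0.44 did not pass (adjusted p = 0.187, edgeR). With a fit of the 0.37 µM and DMSO wells alone it was 0.81 and passed (adjusted p = 0.0170, edgeR). At 1.11 µM the wells ran from 6.73 to 85.8 CPM, the log2 ratio being 0.81 within the left side of the plate and -1.71 within the right.

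RRM2, the small subunit used in dividing cells, passed at both doses, in opposite directions. At 0.37 µM RRM2 had 3.54, 3.205, 0.71 and 2.15 CPM, against 51.9 ± 15.6 CPM in DMSO wells (SD, n = 32), a log2 change of -4.43 ± 0.44 (adjusted p = 2.69e-13, edgeR). At 1.11 µM it had 116, 111, 82.4 and 120.3 CPM, a rise of 1.05 ± 0.28 on the log2 scale (adjusted p = 0.00382, edgeR). RRM1, the large subunit, did not pass at 0.37 µM and rose by 0.96 ± 0.22 at 1.11 µM. With DMSO from rows K and L only, the rises of RRM2 and RRM1 at 1.11 µM were not called.

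SESN1 encodes sestrin 1, which limits oxidants and restrains the growth kinase complex mTORC1. It lies on the minus strand of chromosome 6 at 108986437 to 109094819 (ENSG00000080546). At 0.37 µM it had 11.3, 43.8, 15.7 and 27.9 CPM, against 11.1, 28.6 and 46.1 CPM (lowest, median and highest) in DMSO wells, and at 1.11 µM 34.8, 37.3, 0.84 and 7.48 CPM. Both doses overlapped DMSO widely. The log2 changes of -0.19 ± 0.40 and -0.48 ± 0.43 did not pass (adjusted p = 0.781 and 0.424, edgeR), and the first was 0.10 under the scaling to genes counted in every well, so SESN1 has no stated direction.

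SESN2, its relative, did rise. It had 113, 176, 123 and 100.4 CPM at 0.37 µM and 373, 208, 176 and 187 CPM at 1.11 µM, against 29.4 ± 8.96 CPM in DMSO wells (SD, n = 32). The log2 changes were 2.12 ± 0.25 and 3.00 ± 0.24 (adjusted p = 1.01e-10 and 2.01e-17, edgeR). SESN3 did not pass at either dose. In the list of 4 sestrin and GADD45 relatives, 3 thus rose and 0 fell at both doses, against 11.2% and 9.77% of all genes higher at 0.37 and 1.11 µM.

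Genes that regulate p53 or act with it gave mixed values. HIPK2, a kinase that phosphorylates p53, rose at 0.04, 0.12 and 0.37 µM, by 1.22 ± 0.27, 1.65 ± 0.26 and 2.12 ± 0.25 on the log2 scale. At 1.11 µM HIPK2 averaged 22.8 CPM, against 39.7 CPM in DMSO wells, and did not pass (adjusted p = 0.0764, edgeR). USP7 also rose at 0.37 µM, and ATM, PRKDC and CDKN2A fell. MDM4, the partner of MDM2, passed at neither dose, and PPM1D, the phosphatase that damps p53 signalling, rose at 1.11 µM by 1.43 ± 0.35. ATM did not pass without replicate 1, 2 or 3 or under the scaling to genes counted in every well, and with DMSO from rows K and L only USP7, ATM, PRKDC, CDKN2A at 0.37 µM and PPM1D at 1.11 µM were not called.

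Around CDKN1A, 2 of 15 genes of CDK inhibitors, G1 cyclins and their kinases rose at 0.37 µM, against 11.2% of all genes, and 6 fell, against 13.6%. At 1.11 µM 5 rose, CDKN2D, CCND1, CCND3, CDK4 and PCNA, against 9.77%, and 3 fell, CDKN1B, CDKN1C and CDK6, against 13.2%. CCND1, which encodes cyclin D1, averaged 203 ± 34.0 CPM at 0.37 µM, against 462 ± 43.8 CPM in DMSO wells, and at 1.11 µM averaged 648 ± 144 CPM. PCNA, the DNA polymerase clamp that p21 binds, and CDK2, the kinase p21 inhibits, fell at 0.37 µM, with log2 changes of -1.35 and -2.196. PCNA passed as higher at 1.11 µM, by 0.55 ± 0.21 (adjusted p = 0.0493, edgeR), a call lost without replicate 1, 2 or 4, and CCND1 was not called there without replicate 4. At 0.37 µM CDK6 and CCND3 rose by 1.11 and 0.91 on the log2 scale. CDKN1B and CDKN1C, the other members of the p21 family, did not pass at 0.37 µM, with log2 changes of 0.08 ± 0.38 and 0.30 ± 0.37, and both fell at 1.11 µM, with log2 changes of -1.29 and -1.70. CCND3 did not pass without replicate 1 or 2, nor CDKN1B at 1.11 µM without replicate 1 or 3, and with DMSO from plate rows K and L only CDK2, CCND3, CDKN1B and CDKN1C were not called.

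Of 40 other p53 targets listed, 39 could be tested. At 0.37 µM 10 rose and 11 fell, against 11.2% and 13.6% of all genes, and their median log2 change was -0.06, beside -0.14 over all genes. At 1.11 µM 12 rose and 13 fell, against 9.77% and 13.2% of all genes, with a median of 0.28 beside -0.20. At 0.12 µM 0 rose and 2 fell by edgeR, DRAM1 and BBC3, against 1.31% and 1.02% of all genes. The Wald test of DESeq2 called 1 higher, and 261 of all 14259 genes. The list thus held about equal numbers of rises and falls at both higher doses. Using DMSO from plate rows K and L only, 6 rose and 4 fell at 0.37 µM, and 3 rose and 6 fell at 1.11 µM. Of all 13337 genes then tested, 478 rose and 753 fell at 0.37 µM, and 335 rose and 647 fell at 1.11 µM.

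The largest rises at 0.37 µM were those of PMAIP1, which encodes the death-promoting protein NOXA, at 3.83 ± 0.70 on the log2 scale, and GDF15, a secreted stress hormone, at 3.31 ± 0.34. PMAIP1 had 49.2, 85.6, 80.7 and 41.5 CPM there, against 4.49 ± 4.71 CPM in DMSO wells (SD, n = 32). At 1.11 µM it had 105, 9.70, 2.52 and 9.52 CPM, and its log2 change of 2.81 was 0.68 and not called without replicate 1. GDF15 had 54.1, 175, 91.4 and 85.0 CPM at 0.37 µM and 71.1, 36.6, 45.4 and 72.04 CPM at 1.11 µM, against 10.2 ± 4.82 CPM in DMSO wells, without overlap at either dose. SERTAD1, KITLG, AEN, PLK3 and BTG2 also rose at 0.37 µM, by 1.95, 1.82, 1.78, 1.203 and 1.06. PLK3 and BTG2 did not pass without replicate 2.

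Among the falls, DRAM1, a lysosomal protein of p53-induced autophagy, had 41.6, 32.9, 16.1 and 30.0 CPM at 0.37 µM, against 150.2 ± 22.2 CPM in DMSO wells (SD, n = 32), and all 4 wells lay below the lowest DMSO well of 89.1 CPM. Its log2 change was -2.32 ± 0.28 at 0.37 µM and already -1.76 ± 0.27 at 0.12 µM. BBC3, which encodes the death-promoting protein PUMA, fell, with log2 changes of -0.99 at 0.12 µM, -1.23 at 0.37 µM and -1.88 at 1.11 µM. BBC3 did not pass at 0.12 µM without replicate 1, 2 or 4. PMAIP1 and BBC3, both BH3-only death proteins, thus moved in opposite directions at 0.37 µM. DDB2, a DNA damage sensor, TRIM22, FUCA1, ISCU, SPATA18 and TP53I11 also fell at 0.37 µM, with log2 changes of -1.26, -1.49, -1.77, -1.21, -1.12 and -1.09. FUCA1 did not pass without replicate 1, 2 or 4, nor SPATA18 without replicate 4 or under the scaling to genes counted in every well. At 1.11 µM the largest falls were those of TP53INP1, TIGAR and POLK, with log2 changes of -2.98, -2.67 and -2.07. TIGAR is a regulator of glycolysis and POLK a DNA polymerase that bypasses damage. At that dose TP53INP1 had 0, 8.21, 0 and 0 CPM and TIGAR 3.87, 1.49, 0 and 0 CPM. Their lowest DMSO wells had 2.69 and 0.57 CPM, so both genes were near the floor and overlapped DMSO. POLK had 0, 8.95, 17.7 and 2.72 CPM, which overlaps the DMSO range of 11.8 to 60.3 CPM.

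**Figure D4:**
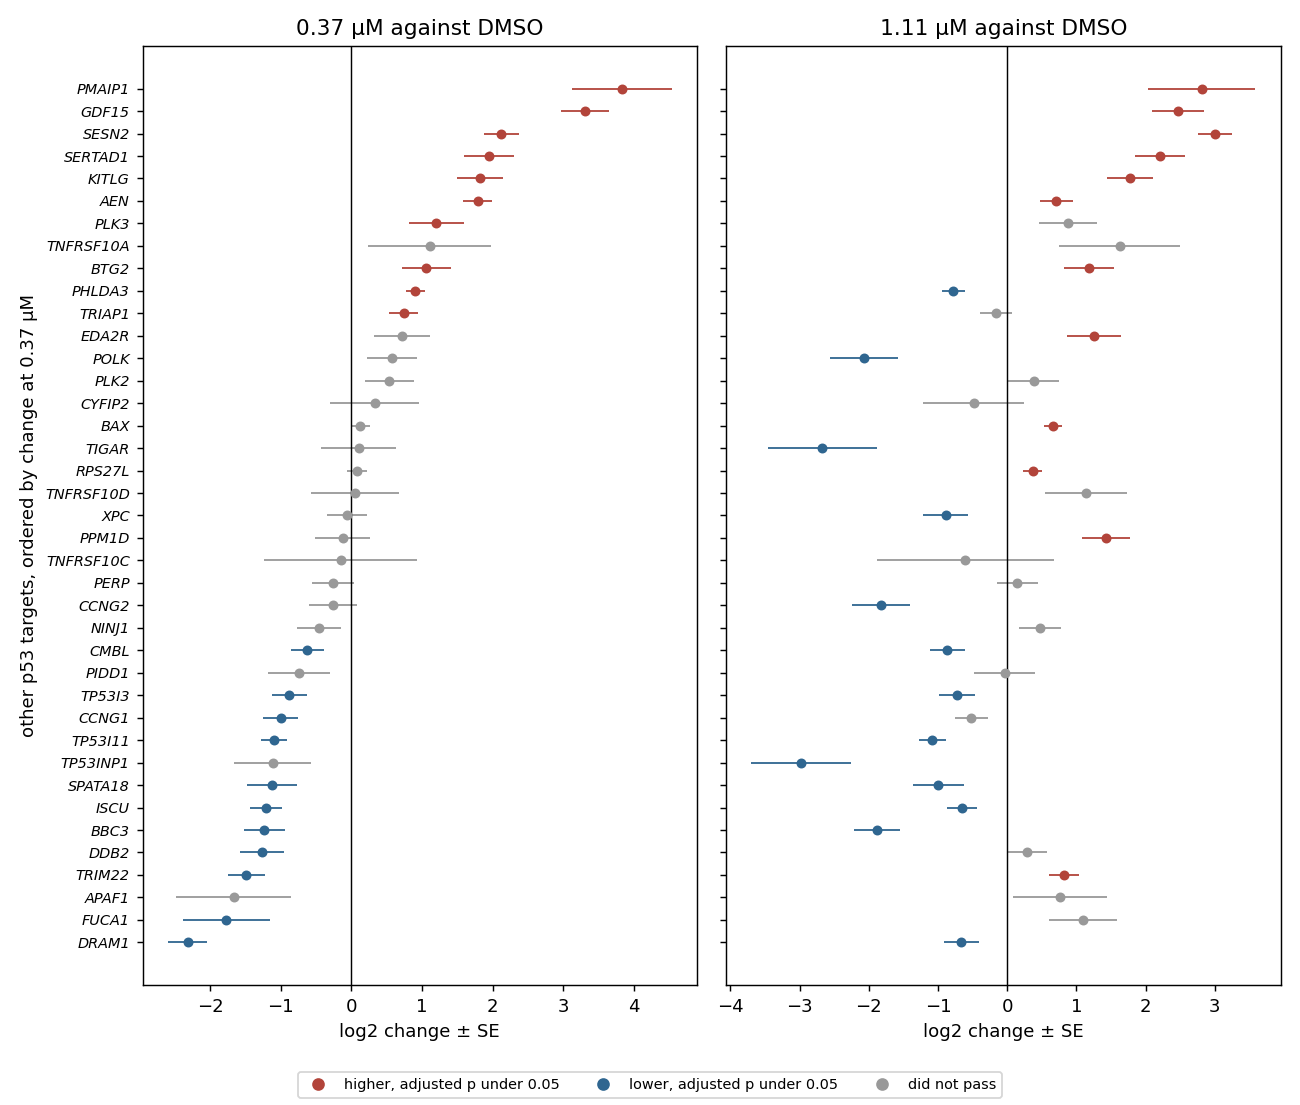
Log2 change ± SE of 39 other p53 targets at 0.37 µM (left) and 1.11 µM (right) against DMSO, in the order of the change at 0.37 µM, red where higher and blue where lower at an adjusted p under 0.05 and grey where the test was not passed. At 0.37 µM 10 genes are red and 11 blue, and at 1.11 µM 12 are red and 13 blue, with PMAIP1, GDF15 and SESN2 red in both panels.

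Across neighbouring doses, members were called only from 0.12 µM upward. No member passed between 0.04 and 0.014 µM or between 0.12 and 0.04 µM, where 0.00701% and 0.014% of all genes did (0 and 1 members at an unadjusted p under 0.05, and 0 by the Wald test of DESeq2 in each). Between 0.37 and 0.12 µM, 4 of 9 rose, against 2.52% of all genes, and 0 fell, against 5.60%. Between 1.11 and 0.37 µM, 1 rose, against 12.1%, and 3 fell, against 13.4%. Under the scaling to genes counted in every well, the share of called genes that were higher was 62.2% in place of 31.1% for the first of these steps and 37.0% in place of 47.4% for the second. Neighbouring steps share the wells of a dose, and comparisons with DMSO share the DMSO wells, so they are not independent of each other.

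At the highest doses the counts were too few for most members. At 3.33 µM, 1 of 9 was higher, FDXR, against 7.35% of all genes, and 1 was lower, FAS, against 32.9%. The FAS call was lost without replicate 1, 3 or 4. At 10 µM, 0 were higher, against 3.35%, and CDKN1A, MDM2 and ZMAT3, 3 of 9, were lower, against 31.8%. The CDKN1A call was lost without replicate 1, 2 or 3. Its log2 change was 0.14 under the scaling to genes counted in every well, so it has no stated direction there. Between 3.33 and 1.11 µM, ZMAT3 and FDXR, 2 of 9, rose, against 7.13%, and CDKN1A, FAS and GADD45A, 3 of 9, fell, against 27.6%. The rise of ZMAT3 was lost without replicate 4 and was -0.39 without replicate 3. Between 10 and 3.33 µM 0 rose, against 5.58%, and MDM2, ZMAT3 and FDXR, 3 of 9, fell, against 15.3%, the call of FDXR being lost without replicate 2 or 4 and that of MDM2 without replicate 3. Under the scaling to genes counted in every well, 31.6% of the genes called at 10 µM against DMSO were higher, in place of 9.53%, and 58.4% of those called against 3.33 µM, in place of 26.8%. The wells at 10 µM held 0 counts of MDM2, ZMAT3 and TNFRSF10B in all 4 wells and 2 counts of SESN1 in all, whose CPM was 0.28 of the DMSO level with a 95% exact counting interval of 0.03 to 1.00. Such intervals and the floor of 3 counts cover counting error only. Single wells carried what was left of several members, such as RRM2B with 22 counts in 1 well of 4 at 10 µM and SESN1 with 20 counts in 1 well of 4 at 3.33 µM.

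The changes of the 3 members that rose at 0.37 µM were close on both sides of the plate. In the left columns, 2 to 12, the log2 ratio of mean CPM was 2.65 for CDKN1A, 2.12 for MDM2 and 3.00 for GADD45A, and in the right columns, 13 to 23, it was 2.65, 1.99 and 2.93. FAS at 1.11 µM gave 1.71 on the left and 1.26 on the right. Each dose filled wells of 1 column on each side, in the same order on both. The order ran from 10 µM in columns 3 and 13 to 0.0005 µM in columns 12 and 22. Dose and column order therefore cannot be told apart within a side. Between DMSO wells of column 23 and column 2, 0 members passed by edgeR, against 6.10% of all genes (1 member at an unadjusted p under 0.05). The difference farthest from 0 among members was that of FAS, at 0.30 ± 0.13 (adjusted p = 0.227, edgeR).

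Profiles were compared over DMSO and the 8 doses up to 1.11 µM as the Pearson correlation of mean log2 CPM, a description over 9 conditions that share their libraries, among 8097 genes. The genes most like CDKN1A were LPXN (r = 0.991), RAB7A (0.989), TRIB3 (0.988), PLIN2 (0.984) and UBQLN1 (0.979). Those most like MDM2 were MAP1LC3B (0.990), SERP1 (0.986), CELF1 (0.984), NUPR1 (0.981) and SNRPA1 (0.979). SERP1 averaged 911 CPM at 0.37 µM and 215 CPM at 1.11 µM, against 223 CPM in DMSO wells. For GADD45A the nearest were DDX39A (0.993) and CCT2 (0.990), for FAS TRIM11 (0.983) and DUSP6 (0.968), and for FDXR ZBTB7A (0.991) and PLEKHF1 (0.991). The nearest genes of ZMAT3 were MPRIP (0.963) and GOLGB1 (0.962), of SESN1 NAA35 (0.960) and NUDT21 (0.958), of TNFRSF10B PGRMC1 (0.943) and CD55 (0.929), and of RRM2B PHF23 (0.918) and MT1X (0.916). Among the members themselves, CDKN1A was most like GADD45A (0.976) and MDM2 (0.878), while FAS and FDXR ran opposite (-0.887).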

How the data were processed

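Expression was measured by DRUG-seq in 72 wells of wildtype normal human dermal fibroblasts: 4 wells at each of 10 omaveloxolone doses and 32 DMSO wells. The protocol names 16 DMSO wells per plate, and all 32 wells that carry the label were used. The authors deposited raw counts per gene and well for 23170 genes, without normalization. kallisto, bustools and GRCh38 were used per the submitters' processing notes; versions, annotation, use of strand and collapsing of molecular identifiers are not given in the sources used here. A count may therefore be a read, and intervals cover counting error only. Columns of other samples numbered 0. Gene names and positions came from GENCODE release 29, which held 23078 of the 23170 IDs.

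The 9 members, the gene lists and the comparisons were chosen with earlier results of these data known. Each dose was compared with DMSO, and each dose from 0.04 µM with the dose below it, in 1 quasi-likelihood fit of edgeR 4.0.16 (R 4.3.3) with TMM scaling, filterByExpr at a minimum count of 10 and robust dispersion. Benjamini-Hochberg adjustment ran over the 14259 genes of a comparison at a threshold of 0.05. The SE was derived from the F value. Y-linked genes and XIST were left out. The result of 1 further gene of the lists is not reported here. The scripts were tested on simulated data with changes at 0.37 µM against DMSO. Of 50 genes each simulated at 1.5-fold, 2-fold, 4-fold and 6-fold, 18%, 42%, 82% and 92% were called. Not passing therefore does not show that a gene was unchanged. Log2 CPM for profiles had a prior count of 2. Genes compared for likeness needed a mean of 10 CPM. DESeq2 1.42.0 gave other size factors and a Wald test. Other alternatives were no filter, a minimum count of 50, and plate side or replicate number as a term. The fit with replicate number used only the DMSO wells A2, A23, B2 and B23. Further ones were DMSO from plate rows K and L only, the 0.0005 µM wells as reference and leaving out each replicate number. Fits were also run without the 2 highest doses and of a dose and DMSO alone.

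Named genes were the 9 members, the 8 largest called rises and falls of the other p53 targets at 0.37 and 1.11 µM, members of the other lists, and the 5 most alike genes for CDKN1A and MDM2 or 2 for the other members; ACTA2 was added for its overlap with FAS. Figures were drawn with matplotlib 3.10.9 from tables made with Python 3.11.15, pandas 2.3.3 and NumPy 2.4.6, and exact 95% counting intervals with SciPy 1.17.1.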

Additional observations from a re-analysis of the deposited data

Results flagged for a closer look

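In each group of 4 wells, the highest or lowest well of a member was looked for that lay apart from the other 3 by more than Dixon's 95% critical share of the group's range, a gap that chance gives in about 1 of 20 groups. Of 90 groups, 16 had such a well. At 1.11 µM these were the lowest wells of CDKN1A (302.4 CPM) and FAS (96.64 CPM), both still above every DMSO well. At doses up to 0.12 µM they were CDKN1A at 0.002 µM (lowest, 147.6 CPM), SESN1 at 0.0005 µM (lowest, 21.53 CPM) and 0.12 µM (highest, 53.02 CPM), FDXR at 0.12 µM (highest, 32.90 CPM) and TNFRSF10B at 0.014 µM (lowest, 1.87 CPM). At 3.33 µM the highest wells of MDM2 (168.6 CPM), SESN1 (95.8 CPM), RRM2B (57.48 CPM) and FAS (52.23 CPM) stood apart. At 10 µM the highest wells of RRM2B (386.2 CPM), GADD45A (299.4 CPM), FAS (126.1 CPM), FDXR (70.22 CPM) and SESN1 (26.92 CPM) did. Of the 9 wells at these 2 doses, all rest on at most 30 counts of the gene, with the other wells of the group at 0 to 2 counts.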

How the results depend on the processing

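The rises of CDKN1A, MDM2 and GADD45A at 0.37 µM and of CDKN1A and GADD45A at 1.11 µM passed under every alternative run, with log2 changes of 2.47 to 2.90, 1.98 to 2.31, 2.71 to 3.25, 0.80 to 1.03 and 1.36 to 1.88. Other counts of members moved; the cause was not tested. The scaling to genes counted in every well was added after seeing the data. Replicate numbers did not pair the wells: same-numbered wells correlated at a median of -0.01 (from -0.32 to 0.31 over 144 pairs), so the replicate block is given here alone. The block kept only the DMSO wells A2, A23, B2 and B23. Over all genes it called 472 higher and 737 lower at 0.37 µM, in place of 1593 and 1940. At 1.11 µM it called 232 higher and 564 lower, in place of 1393 and 1885. Under the block, members called higher fell to 0 at 0.12 and 3.33 µM, and members called lower to 0 at 0.37, 1.11 and 3.33 µM. Members called higher at 1.11 against 0.37 µM fell to 0, and at 3.33 against 1.11 µM to 1. FAS at 1.11 µM (1.47, adjusted p = 0.0939) and TNFRSF10B at 0.37 against 0.12 µM (2.53, adjusted p = 0.154) also lost their calls in edgeR. Under the block, 5 other p53 targets rose and 4 fell at 0.37 µM, 3 rose and 3 fell at 1.11 µM, 1 fell at 0.12 µM and 1 rose at 3.33 µM.

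With DMSO rows K and L alone, 0 members were called higher at 0.12 and 3.33 µM and 0 lower at 0.37, 1.11 and 3.33 µM. Other targets numbered 0 lower at 0.12 µM and 1 higher at 3.33 µM. They numbered 6 higher and 4 lower at 0.37 µM, and 3 higher and 6 lower at 1.11 µM. This setting kept only the DMSO wells K2, K23, L2 and L23. Over all genes it called 478 higher and 753 lower at 0.37 µM, in place of 1593 and 1940. At 1.11 µM it called 335 higher and 647 lower, in place of 1393 and 1885. With 0.0005 µM as reference, 0 members were higher at 0.12 µM and 0 lower at 0.37 and 1.11 µM; other targets numbered 1 lower at 0.12 µM, 5 higher and 7 lower at 1.11 µM and 1 higher at 3.33 µM. In the Wald test of DESeq2, 2 members were lower at 0.37 µM, 1 higher at 10 µM, 1 lower at 0.37 against 0.12 µM and 1 higher at 10 against 3.33 µM, and 1 other target rose at 0.12 µM. With a dose and DMSO alone, 1 member was lower at 0.12 µM and 2 at 0.37 µM, RRM2B became higher at 0.37 µM (0.81, adjusted p = 0.0170, edgeR), and 1 other target rose and 4 fell at 0.12 µM. With a minimum count of 50, or without the 3.33 and 10 µM wells, 2 members were lower at 0.37 µM, and without those wells 1 other target rose at 0.12 µM. With no filter, 0 members were lower at 0.37 µM, 0 higher at 1.11 against 0.37 µM and 1 higher at 3.33 against 1.11 µM, with 1 other target lower at 0.12 µM and 12 at 10 µM. With plate side as a term, 1 member was higher at 3.33 against 1.11 µM. With genes counted in every well, 0 members were lower at 0.37 µM, 1 higher at 10 µM, 0 higher at 1.11 against 0.37 µM, 1 higher at 3.33 against 1.11 µM and 1 higher at 10 against 3.33 µM, and 2 other targets rose and 8 fell at 10 µM. DESeq2 size factors left 10 lower at 10 µM.

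Leaving out each replicate number, members called ranged from 0 to 1 higher at 0.12 µM, 0 to 1 lower at 0.37 µM, 1 to 2 lower at 1.11 µM, 0 to 1 higher and 0 to 3 lower at 3.33 µM, and 0 to 1 higher and 2 to 5 lower at 10 µM. For the step to 1.11 µM they ranged from 0 to 1 higher and 3 to 5 lower, for the step to 3.33 µM from 1 to 2 higher and 3 to 5 lower, and for the step to 10 µM from 0 to 1 higher. Other targets ranged from 0 to 1 higher and 1 to 2 lower at 0.12 µM, 8 to 12 lower at 1.11 µM, 1 to 3 higher at 3.33 µM and 11 to 14 lower at 10 µM. Signs turned for RRM2B at 1.11 µM (-0.027 with rows K and L; from -0.58 to 0.45 leaving out each replicate number), SESN1 at 0.37 µM (0.028 under the block, 0.096 with genes counted in every well; from -0.615 to 0.054), CDKN1A at 10 µM (0.14 with genes counted in every well) and ZMAT3 at 3.33 against 1.11 µM (from -0.39 to 1.92). Depth limits every value at 3.33 and 10 µM, where a member often rests on under 30 counts.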
